A study of Mus musculus with 3 samples.

Results

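Mouse embryonic stem cells carrying introduced Lef1 at passage 5 (Lef1 P5) were compared with cells carrying an empty vector at passage 2 (the control). Both cultures were of the 46C line, of strain 129, in which a fluorescent reporter sits at Sox1. They grew on gelatin in serum with LIF (leukemia inhibitory factor), and total RNA was sequenced. The vector is labelled PB and the Lef1 construct PB-Lef1. The labels do not say whether a culture was 1 clone or a pool, nor which promoter drove Lef1. These are 2 of the 3 libraries of the series. The third, Lef1 at passage 2 (Lef1 P2), is given beside them for its values only, since it shares the control library. Construct and passage both differ between Lef1 P5 and the control, and these cannot be told apart here.

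Each group had n = 1 library, so the comparison has no test and no p-value. Genes were ranked by size alone, on log2 of the ratio of FPKM values (fragments per kilobase of transcript, scaled to library depth) after adding 1 FPKM to each. A gene was called at a ratio of 1 or more in size if the higher library had at least 3 FPKM and 20 expected reads. Folds are plain ratios of FPKM. Intervals in parentheses are exact Poisson 95% intervals, which cover counting error only and not the spread between cultures.

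Lef1 encodes a DNA-binding protein that recruits beta-catenin to Wnt target genes. In mouse embryonic stem cells its level is normally low and rises as cells leave the naive state. Primitive endoderm is the extraembryonic lineage set up by Gata6 beside the pluripotent epiblast. Its parietal derivative lays down a thick basement membrane of type IV collagen and laminin, while its visceral derivative takes up and carries nutrients.

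The libraries were of like depth, with 9225401 expected counts in the control, 9170554 for Lef1 P2 and 9380813 for Lef1 P5. All 8 embryonic stem cell markers were measured, with a summed level of 6434 FPKM in the control and 6386 FPKM in Lef1 P5. Blood markers (0 of 3) and mesoderm markers (0 of 5) did not reach 1 FPKM in either. The summed primitive and parietal endoderm markers stood at 137.9 FPKM in the control, 1339 FPKM in Lef1 P2 and at 373.8 FPKM in Lef1 P5, and 10 of 11 were measured. The largest term of this sum was the matrix gene Sparc, at 85.2 FPKM, 545 FPKM and 153 FPKM in the same order. Sparc was not called, with a log2 ratio of 0.84 in Lef1 P5, and the sum mostly follows such abundant matrix genes. In bulk RNA, more cells of a type and more RNA per cell cannot be told apart.

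Lef1 was at 1.49 FPKM (1.10 to 1.98) in the control, 135 FPKM in Lef1 P2 and at 214 FPKM (208 to 219) in Lef1 P5. The levels follow the labels. Introduced and resident Lef1 are counted together.

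Of 10121 genes that could be called, 142 were higher in Lef1 P5 (1.40%) and 130 were lower (1.28%). Most genes lay close to the diagonal: 89.7% of those that could be called were within 1.5-fold on the log2 scale. Among the calls, 17 higher and 7 lower genes passed a log2 ratio of 2 in size, and 66 higher and 74 lower genes lay under 1.25. The strongest ratios not called were 0.997 and -0.996. Counting intervals did not overlap for 142 higher and 127 lower genes. The same held for 3723 of all 10121 genes that could be called, so it is common at this depth. The called genes were mostly weakly expressed, with a median level in the higher library of 9.21 FPKM for the higher genes and 7.71 FPKM for the lower genes. No chromosome was shifted as a whole, since chromosome medians of the log2 ratio ran from -0.05 to 0.03.

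**Figure D1:**
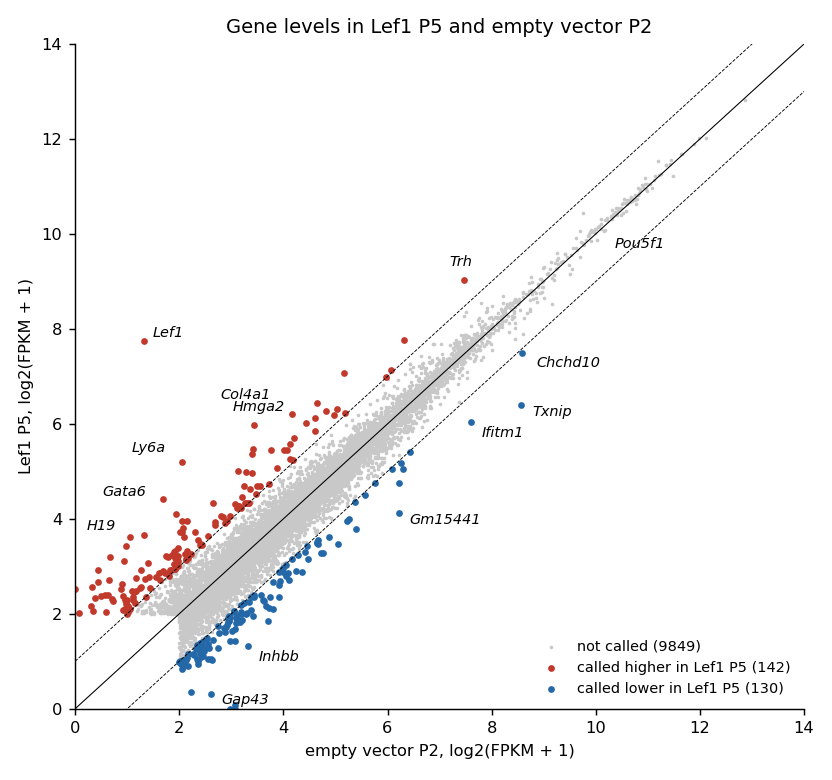
Level of each gene that could be called in the control (x axis) and Lef1 P5 (y axis), both as log2(FPKM + 1). The solid line marks equal levels and the dashed lines a 2-fold ratio on this scale, with 142 genes called higher in red, 130 called lower in blue and the rest in grey. Lef1, Ly6a, Gata6 and Hmga2 stand far above the diagonal, and Txnip and Inhbb below it, while Pou5f1 lies on it.

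Several transcription factor genes of the endoderm were higher in Lef1 P5. Of the 19 measured members of that list 6 were called higher, none lower and 13 were not called, and the list's median log2 ratio was 0.73 against -0.02 for all 12255 measured genes. With a pseudocount of 5 FPKM, which shrinks the ratios of weakly expressed genes, it was 0.38. This list and those below were written with earlier results of these data known, so their counts and medians are a description only. Among all genes that could be called 1.40% were higher and 1.28% lower. Those shares are over genes that reach the level for a call, while list counts are over measured members. Gata6, which specifies primitive endoderm, was at 2.24 FPKM (1.73 to 2.86) in the control, 46.3 FPKM in Lef1 P2 and at 20.3 FPKM in Lef1 P5. Its antisense neighbour Gata6os was at 0.48 FPKM, 11.1 FPKM and 4.25 FPKM in the same order, resting on 3, 64 and 26 reads. No source used here says whether counting used strand, so reads of these overlapping genes cannot be told apart.

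Foxq1, a forkhead factor gene, was 7.85-fold higher (5.59 to 11.3) in Lef1 P5, at 11.7 FPKM against 1.49 FPKM, with 25.8 FPKM in Lef1 P2. Gata4, a partner of Gata6, was at 2.82 FPKM in the control, 66.0 FPKM in Lef1 P2 and at 16.3 FPKM in Lef1 P5. Sox17, which acts in primitive and definitive endoderm, was at 0.57 FPKM, 20.1 FPKM and 5.54 FPKM. All of these stood higher in Lef1 P2 than in Lef1 P5. The related gene Sox7 was at 0.88 FPKM in the control and 4.17 FPKM in Lef1 P5, and Otx2, an anterior epiblast and visceral endoderm factor gene, at 9.26 FPKM and 23.8 FPKM. Hnf4a, a factor of mature visceral endoderm, went the other way, at 2.13 FPKM in the control, 4.55 FPKM in Lef1 P2 and at 0.59 FPKM in Lef1 P5, and was left uncalled.

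In a list kept for surface and secreted genes of primitive and parietal endoderm, 5 of 20 measured members were called higher and 1 lower. The list's median log2 ratio was 0.61, or 0.21 with a pseudocount of 5 FPKM. The shares over all genes that could be called were 1.40% and 1.28%. Pdgfra, the growth factor receptor gene that marks primitive endoderm, was 8.46-fold higher (6.39 to 11.4) in Lef1 P5, at 7.70 FPKM against 0.91 FPKM. Stra6, a retinol uptake receptor gene, was 14.8-fold higher (7.60 to 33.1), from 9 reads in the control and 143 in Lef1 P5. Srgn, a core protein gene of secreted proteoglycans, was at 5.30 FPKM in the control and 19.07 FPKM in Lef1 P5. Lrpap1, a chaperone gene for endocytic receptors of the LDL receptor family, was at 23.4 FPKM and 68.7 FPKM. The lower member was Epas1, a hypoxia-inducible factor gene and so neither a surface nor a secreted one. It had a log2 ratio of -1.02, and its call ended under median-of-ratios, TMM and quantile scaling. Pth1r, a hormone receptor gene of parietal endoderm, was at 1.09 FPKM in the control, 23.4 FPKM in Lef1 P2 and at 2.56 FPKM in Lef1 P5, and the parietal marker Thbd stayed under 1 FPKM in all 3 libraries.

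Basement membrane genes were split by subunit. Of 29 measured members 6 were called higher and 1 lower, beside 1.40% and 1.28% of all genes that could be called. The list's median log2 ratio was 0.11. Col4a1 and Col4a2 encode the chains of the common type IV collagen. Col4a1 was at 17.0 FPKM in the control, 316 FPKM in Lef1 P2 and at 73.4 FPKM (71.2 to 75.5) in Lef1 P5, and Col4a2 at 9.73 FPKM, 194.9 FPKM and 43.2 FPKM (41.6 to 44.9). The ratio of Col4a1 to Col4a2 was 1.75, 1.62 and 1.70 in these libraries, so the pair kept nearly the same proportion.

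The 2 collagen genes lie head to head, and their RefSeq promoter windows (250 bases before to 50 after the start site, GRCm38.p6) share 78 bases. Both windows are shown because both genes were called higher. Col4a1 is on the minus strand at chr8:11312777-11313076 and Col4a2 on the plus strand at chr8:11312555-11312854. The shared bases are in capitals, each window read 5′ to 3′ on the strand of its own gene.
Col4a1: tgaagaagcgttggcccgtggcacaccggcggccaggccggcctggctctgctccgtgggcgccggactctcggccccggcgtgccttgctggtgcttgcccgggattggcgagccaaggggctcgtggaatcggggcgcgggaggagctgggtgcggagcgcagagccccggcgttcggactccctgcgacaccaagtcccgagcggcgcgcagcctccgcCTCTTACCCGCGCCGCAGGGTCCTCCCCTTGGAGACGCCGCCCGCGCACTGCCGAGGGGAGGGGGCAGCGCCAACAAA
Col4a2: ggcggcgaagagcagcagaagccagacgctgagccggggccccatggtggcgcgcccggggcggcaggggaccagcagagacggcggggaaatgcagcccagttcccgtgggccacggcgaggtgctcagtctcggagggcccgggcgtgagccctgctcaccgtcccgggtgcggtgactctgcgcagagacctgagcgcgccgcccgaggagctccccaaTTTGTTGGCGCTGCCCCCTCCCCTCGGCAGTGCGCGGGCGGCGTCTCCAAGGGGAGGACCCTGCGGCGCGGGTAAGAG

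Lama1 and Lamb1 encode laminin chains of the early embryo. Lama1 was 3.55-fold higher (3.39 to 3.73) in Lef1 P5, at 85.2 FPKM against 24.0 FPKM, and Lamb1 was at 78.7 FPKM against 31.6 FPKM. Lamc1, the gamma chain of the same trimer, had a log2 ratio of 0.60 and was left uncalled. The collagen chaperone gene Serpinh1 was at 27.3 FPKM in the control and 76.3 FPKM in Lef1 P5, and the prolyl hydroxylase gene P4ha2 at 8.53 FPKM and 25.0 FPKM. The related hydroxylase gene P4ha1 was at 16.0 FPKM in the control, 72.2 FPKM in Lef1 P2 and at 17.3 FPKM (15.9 to 18.6) in Lef1 P5, so only the passage 2 Lef1 library stood apart for it. Other matrix genes were near the control level, among them Nid1 (36.5 and 35.1 FPKM), Lama5 (45.1 and 43.5 FPKM) and Hspg2 (73.4 and 77.1 FPKM). The lower member was Fkbp10, a collagen-folding enzyme gene, at 15.0 FPKM and 6.81 FPKM.

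The genes of the cell surface that bind this matrix were not called. None of 14 measured integrin and matrix receptor genes was called, and 13 of 14 had a ratio below 0, with a median of -0.25. The fibronectin receptor gene Itga5 was at 18.2 FPKM in the control and 9.87 FPKM in Lef1 P5, the laminin receptor gene Itga6 at 43.7 FPKM and 30.3 FPKM, and the common beta chain gene Itgb1 at 48.6 FPKM and 43.0 FPKM. The fibronectin gene Fn1 was at 166 FPKM and 87.6 FPKM, and was left uncalled. No member of a list of 18 measured matrix protease and inhibitor genes was called, though proteases and inhibitors outside it were, among them the matrix metalloprotease gene Mmp11, lower. In that list Ctsl, a lysosomal protease gene, had a log2 ratio of 0.78.

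Visceral endoderm genes were mostly not called, though the list's median log2 ratio was 0.24 and 9 of 13 measured members lay above 0. Another 11 listed members were not measured. Of 13 measured members 2 were called higher and none lower, beside 1.40% and 1.28% of all genes that could be called. The 2 were Spink1, a trypsin inhibitor gene, and Ctsc, a lysosomal dipeptidase gene. Spink1 was at 7.77 FPKM in the control, 3.96 FPKM in Lef1 P2 and at 31.1 FPKM in Lef1 P5. Cubn, the nutrient uptake receptor gene, was at 2.68 FPKM, 33.0 FPKM and 2.53 FPKM, and its partner Amn at 2.33 FPKM, 16.5 FPKM and 5.62 FPKM. Amn lay just under the threshold, with a log2 ratio of 0.99. The defining markers Afp, Ttr, Apoa1 and Cer1 were under 1 FPKM in both libraries of the comparison.

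**Figure D2:**
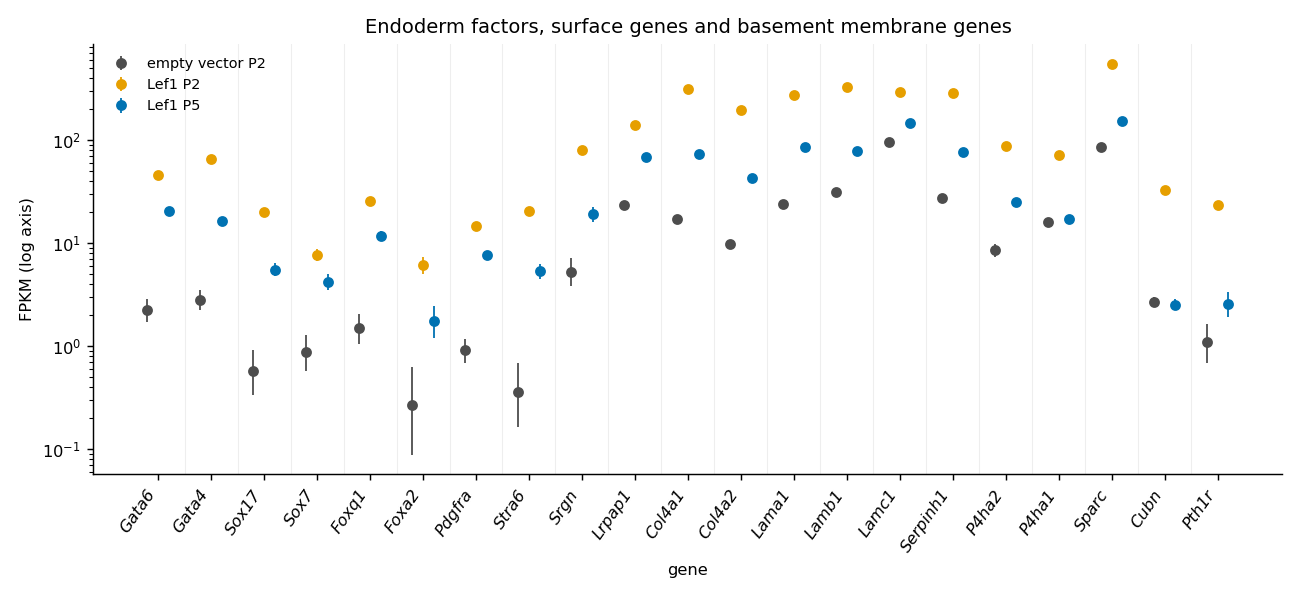
FPKM on a log axis of endoderm and basement membrane genes in the control (grey), Lef1 P2 (orange) and Lef1 P5 (blue), 1 library each, with exact Poisson 95% counting intervals as bars. For Gata6, Gata4, Col4a1 and Lama1, Lef1 P5 lies between the other 2 libraries, while for P4ha1 and Cubn it lies at the control level.

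Ly6a, a surface antigen gene, had the largest ratio after Lef1. It was at 3.14 FPKM in the control, 108 FPKM in Lef1 P2 and at 35.5 FPKM (31.6 to 39.7) in Lef1 P5. Krt8, a keratin gene of simple epithelia, was called higher at 19.2 FPKM against 8.55 FPKM, while its partner Krt18 was at 12.9 FPKM against 11.2 FPKM. In the keratin and adhesion list 2 of 25 measured genes were called higher and none lower, beside 1.40% and 1.28% of all genes that could be called. The epithelial cadherin gene Cdh1 was at 81.6 FPKM in the control and 80.5 FPKM in Lef1 P5. Snai1, a repressor gene of the epithelial state and a Wnt target, was at 0.84 FPKM and 4.71 FPKM.

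Stra6 stood apart from the other retinoid genes. It was the one called gene of 13 measured, beside 1.40% higher and 1.28% lower of all genes that could be called. The median of the list was -0.38, or -0.15 with a pseudocount of 5 FPKM. The retinoic acid receptor gene Rarg was at 52.5 FPKM in the control, 17.4 FPKM in Lef1 P2 and at 26.0 FPKM in Lef1 P5. Rara was at 18.1 FPKM and 10.3 FPKM, and the binding protein genes Crabp1 at 24.1 FPKM and 12.1 FPKM and Crabp2 at 9.02 FPKM and 4.29 FPKM, in the control and Lef1 P5. These 4 were left uncalled, with log2 ratios from -0.98 for Rarg to -0.75 for Rara.

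Most measured genes of the Wnt pathway were not called. Of 23 measured feedback and target genes 3 were higher, namely the introduced Lef1 itself, Snai1 and Axin2, and none lower, against 1.40% higher among all genes that could be called, with a median log2 ratio of 0.02. Axin2, a feedback inhibitor gene, was at 2.77 FPKM in the control, 5.89 FPKM in Lef1 P2 and at 8.01 FPKM (7.15 to 8.94) in Lef1 P5. The feedback inhibitor gene Nkd2 had a ratio of -1.17 but stayed under 3 FPKM, at 2.70 FPKM and 0.64 FPKM. None of 30 ligand, receptor and transducer genes was called. Among 12 measured TCF/LEF factors and partners only Lef1 was called, and the corepressor gene Tle1 was at 13.9 FPKM and 7.39 FPKM.

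The motif CTTTGA, the core of TCF/LEF binding, was searched on both strands of the RefSeq promoter windows. It was found in 24 of 100 higher genes with a window (24.0%), 19 of 98 lower genes (19.4%) and 13.7% of 9794 measured genes. Not every called gene had a window, and Gata4, Sox17, Lama1, Ly6a and Foxq1 had none. A gene was counted if any of its windows held the motif, unlike the shares of all windows below. The longer form CTTTGAA, each match of which also holds CTTTGA, was found in 10 higher genes, 8 lower genes (8.16%) and 4.15% of measured genes. CTTTGA was present in 16.0% of all 32851 windows, and the longer form in 5.14% of them. The motif GATAA, the core of GATA factor sites, was found in 24.0% of higher, 16.3% of lower and 18.5% of measured genes, and in 25.4% of all windows. The window of Axin2 held neither CTTTGA nor GATAA. A match is a description of letters and not a binding site.

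The pluripotency network stayed near the control level. Of 38 measured members 1 was called higher and none lower, beside 1.40% and 1.28% of all genes that could be called. The other 37 were not called, and the median log2 ratio was 0.05. Dppa5a was at 3771 FPKM in the control and 3816 FPKM in Lef1 P5, and Pou5f1 at 1135 FPKM and 1062 FPKM. Among genes of the LIF pathway, the Stat3 feedback inhibitor gene Socs3 was at 105 FPKM and 86.8 FPKM. Pramel7 was the one called gene of 22, at 0.66 FPKM and 3.83 FPKM, beside the same shares over all genes that could be called. Of 24 formative and primed epiblast genes 4 were higher and 2 lower, beside 1.40% and 1.28% of all genes that could be called. The higher ones were the introduced Lef1 itself, Lefty2, Otx2 and Krt8. The lower ones were the helix-loop-helix factor gene Tcf15, at 78.1 FPKM and 32.2 FPKM, and the POU factor gene Pou3f1, at 6.26 FPKM and 2.27 FPKM.

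In Nodal and activin signalling a ligand gene was lower and an antagonist gene higher. Inhbb, which encodes the activin B subunit, was at 9.0 FPKM in the control, 2.00 FPKM in Lef1 P2 and at 1.49 FPKM (1.13 to 1.92) in Lef1 P5. Lefty2, a Nodal antagonist gene, was at 20.7 FPKM, 38.6 FPKM and 63.5 FPKM, with counts that were not whole and so may include reads shared with another gene. Nodal itself was at 22.7 FPKM, 11.1 FPKM and 16.2 FPKM. Inhbb and Lefty2 were the only called genes of 22 measured. Beside this list and the BMP and FGF lists, 1.40% of all genes that could be called were higher and 1.28% lower. Of 17 measured BMP genes none was called, and of 27 FGF and ERK genes 1, the phosphatase gene Dusp4, at 10.2 FPKM in the control and 24.8 FPKM in Lef1 P5.

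Neural genes were called in both directions. Of 15 measured members 2 were higher and 3 lower, beside 1.40% and 1.28% of all genes that could be called. The median log2 ratio was -0.39, and 10 of the 15 lay below 0. Not all 3 lower members are named here. The growth-cone gene Gap43 was at 5.08 FPKM (59 reads) in the control, not listed in Lef1 P2 and at 0.25 FPKM (3 reads) in Lef1 P5, 20.3-fold lower (6.62 to 101). The neurofilament gene Nefl was at 3.16 FPKM, 23.8 FPKM and 14.5 FPKM, and the medium chain gene Nefm at 0.27 FPKM, 3.56 FPKM and 2.67 FPKM. The factor gene Sox21 was at 1.13 FPKM, 4.37 FPKM and 4.58 FPKM. These neurofilament genes went against the list's median, which was below 0, and Nefm stayed under the level needed for a call.

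Hmga2, an architectural chromatin protein gene of embryonic and growing cells, was higher in Lef1 P5 than in both other libraries. It was at 9.86 FPKM (8.89 to 10.9) in the control, 28.4 FPKM in Lef1 P2 and at 61.9 FPKM (59.5 to 64.4) in Lef1 P5, a 6.28-fold ratio (5.63 to 7.02) between the last and the first. Hmga2-ps1, a pseudogene of it, was at 3.28 FPKM, 6.63 FPKM and 11.3 FPKM. Reads of near-identical copies may be shared, so the value of the pseudogene is uncertain.

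Hmga2 messenger RNA is a classic target of let-7 microRNAs, which the Lin28 proteins hold back. Most of this oncofetal list was not called: 3 of 19 measured were called higher (Hmga2, H19 and Igf2), none lower, and the median was -0.01. The shares over all genes that could be called were 1.40% and 1.28%. Lin28a was at 80.8 FPKM in the control and 90.9 FPKM in Lef1 P5, and Lin28b at 6.60 FPKM and 7.04 FPKM. The RNA-binding protein gene Igf2bp2 was at 35.7 FPKM and 62.2 FPKM, a log2 ratio of 0.79. Hmga1, the other gene of the family, was at 85.8 FPKM and 92.0 FPKM.

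The imprinted genes that were called sit in 2 groups of neighbours on chromosome 7. H19 and Igf2, which share an enhancer, were both higher. H19 was at 1.07 FPKM, 15.1 FPKM and 11.3 FPKM in the control, Lef1 P2 and Lef1 P5, and Igf2, a growth factor gene, at 3.23 FPKM, 15.9 FPKM and 13.01 FPKM. Cdkn1c, Slc22a18 and Phlda2, genes of the neighbouring domain that are expressed from the maternal copy, were all lower in Lef1 P5. The growth inhibitor gene Cdkn1c was at 31.9 FPKM, 14.9 FPKM and 10.1 FPKM, and Phlda2, which limits placental growth, at 74.0 FPKM, 16.0 FPKM and 26.0 FPKM. Slc22a18, a transporter gene, was at 3.48 FPKM, 6.07 FPKM and 1.24 FPKM. It lay at the threshold and was no longer called under median-of-ratios, TMM or quantile scaling or with 1 common gene length. Of 23 measured imprinted genes 2 were called higher and 3 lower, beside 1.40% and 1.28% of all genes that could be called. The remaining 18 were not called, among them Peg3 and Meg3.

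Among all called genes, 21 pairs were direct neighbours in the order of measured genes, 10 of them both higher, 8 both lower and 3 opposite. How many pairs this number of calls would give by gene order alone was not worked out, so the counts are a description only. The neighbouring pairs included the gene pairs above, the growth regulator Ccn1 with Ddah1, and Mmp11 with Chchd10. The mitochondrial protein gene Chchd10 was at 382 FPKM in the control, 305 FPKM in Lef1 P2 and at 179.6 FPKM in Lef1 P5, among the most abundant of the lower genes. Several neighbouring pairs overlap or are near-identical, so their reads are not independent.

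Txnip, which encodes an inhibitor of thioredoxin and of glucose uptake, was lower in Lef1 P5 than in both passage 2 libraries. It was at 379.6 FPKM (372 to 387) in the control, 373 FPKM in Lef1 P2 and at 82.8 FPKM (79.3 to 86.4) in Lef1 P5, which is 4.59-fold lower (4.37 to 4.81) than the control. Gm15441, a noncoding gene annotated across it on the opposite strand, was at 73.2 FPKM, 68.8 FPKM and 16.3 FPKM. The ratio of Txnip to Gm15441 was 5.18, 5.42 and 5.07 in these libraries, and without strand their reads cannot be told apart. The next gene, Polr3gl, an RNA polymerase III subunit gene, was at 11.7 FPKM, 8.10 FPKM and 3.46 FPKM.

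Txnip and its relative Arrdc4 are the textbook targets of MondoA (Mlxip) and ChREBP (Mlxipl), factors that bind paired E-box-like elements when sugar phosphates are plentiful. Their RefSeq promoter windows (GRCm38.p6) are shown for the E-box-like letters they hold. Txnip is on the plus strand at chr3:96557707-96558006 and Arrdc4 on the minus strand at chr7:68749189-68749488. Capitals mark CACGAG in Txnip, chosen after the sequence was seen, and CACGTG, the canonical E-box, in Arrdc4, each searched on both strands.
Txnip: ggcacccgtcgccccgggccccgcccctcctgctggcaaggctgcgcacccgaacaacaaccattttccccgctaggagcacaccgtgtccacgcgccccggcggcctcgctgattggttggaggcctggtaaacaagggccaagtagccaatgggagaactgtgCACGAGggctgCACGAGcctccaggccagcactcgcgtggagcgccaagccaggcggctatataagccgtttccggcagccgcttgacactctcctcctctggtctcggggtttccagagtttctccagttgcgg
Arrdc4: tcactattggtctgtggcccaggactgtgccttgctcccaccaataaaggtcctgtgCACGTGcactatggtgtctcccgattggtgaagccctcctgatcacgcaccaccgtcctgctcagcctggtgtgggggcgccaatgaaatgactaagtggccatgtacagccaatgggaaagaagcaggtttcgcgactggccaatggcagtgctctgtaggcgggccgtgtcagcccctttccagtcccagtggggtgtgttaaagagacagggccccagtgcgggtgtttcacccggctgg

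The Txnip window held CACGAG from -85 to -80 and from -74 to -69 relative to the start site at 1. This pair, with 5 bases between the copies, was found in 1 of all 32851 windows, that of Txnip. The letters and the spacing were both taken from the Txnip window, so its match was fixed in advance. The Arrdc4 window held CACGTG from -193 to -188, and 7.15% of all windows held this motif, with 13 of 100 higher genes, 12.2% of lower and 12.1% of measured genes.

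Txnip was the one called gene of 23 measured in its list, beside 1.28% lower and 1.40% higher of all genes that could be called. The list's median was 0.04. Arrdc4 was at 50.2 FPKM in the control, 81.2 FPKM in Lef1 P2 and at 30.1 FPKM (27.7 to 32.7) in Lef1 P5, 1.67-fold lower (1.504 to 1.85), and was left uncalled. Mlxip was at 12.5 FPKM, 9.68 FPKM and 7.82 FPKM, its dimer partner Mlx at 18.4 FPKM, 18.4 FPKM and 21.4 FPKM, and the glucose transporter gene Slc2a3 at 296 FPKM, 641 FPKM and 414 FPKM. Of 33 measured glycolysis and hypoxia genes 1 was called, Epas1, and the list's median was 0.09. The enzyme genes Gapdh, Pkm and Ldha had log2 ratios of 0.02, 0.12 and 0.14.

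**Figure D3:**
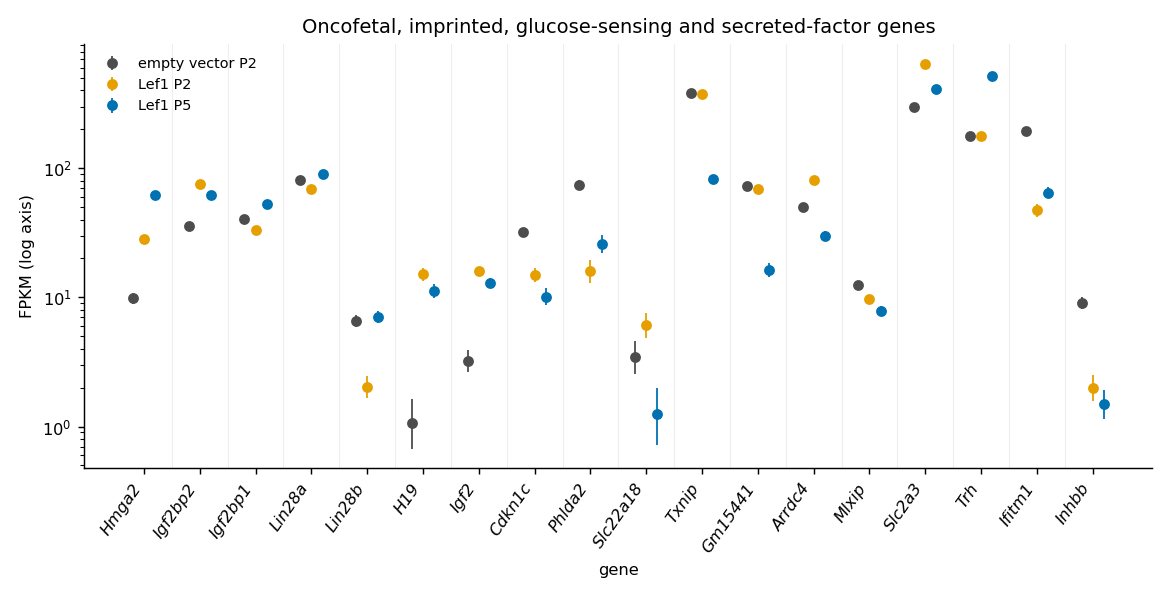
FPKM on a log axis of 18 oncofetal, imprinted, glucose-sensing and secreted-factor genes in the control (grey), Lef1 P2 (orange) and Lef1 P5 (blue), 1 library each, with exact Poisson 95% counting intervals as bars. Txnip, Gm15441 and Trh stand apart in Lef1 P5 while the passage 2 libraries lie together, whereas for H19, Igf2 and Inhbb the Lef1 libraries lie closer to each other than to the control.

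Some further genes stood near the control level in Lef1 P2 and away from it in Lef1 P5. They were chosen after their values were seen. Trh, the thyrotropin-releasing hormone gene, was at 176 FPKM, 178 FPKM and 521 FPKM in the control, Lef1 P2 and Lef1 P5. Fam25c was at 34.9 FPKM, 48.5 FPKM and 133.9 FPKM, and Arhgdib at 9.48 FPKM, 6.06 FPKM and 40.1 FPKM. The RNA helicase gene Dhx9 lay at the threshold, at 61.9 FPKM, 47.4 FPKM and 124.9 FPKM. On the lower side, the meiotic cohesin gene Stag3 was at 28.2 FPKM, 30.4 FPKM and 11.2 FPKM, and the antiviral gene Bst2 at 84.8 FPKM, 75.0 FPKM and 41.4 FPKM. Passage 5 has no control library in this comparison, so passage and Lef1 cannot be told apart for any of them.

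Other strongly ranked genes are given in the order of control, Lef1 P2 and Lef1 P5. The melanocyte channel gene Trpm1 was at 0.98 FPKM, 12.8 FPKM and 9.82 FPKM, and the endothelial adaptor gene Nostrin at 0.25 FPKM, 10.97 FPKM and 4.94 FPKM. The peptidoglycan recognition gene Pglyrp1 was not listed in the control and was at 4.24 FPKM and 4.77 FPKM, at least 9.99-fold higher in Lef1 P5 against 3 reads in the control library. The adaptor gene Sh2d4b was at 0.35 FPKM, 1.41 FPKM and 6.61 FPKM. The thrombin receptor gene F2r was at 17.5 FPKM, 51.1 FPKM and 50.9 FPKM, and the creatine kinase gene Ckb at 78.7 FPKM, 200.3 FPKM and 216 FPKM. The interferon-inducible membrane gene Ifitm1 was at 193 FPKM, 47.1 FPKM and 64.7 FPKM.

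Lower genes of the 12 strongest also included the small heat-shock gene Hspb2 (12.1 FPKM in the control and 2.59 FPKM in Lef1 P5) and the noncoding gene Gm5091 (3.67 and 0.28 FPKM). The organic anion transporter gene Slco4a1 was at 12.98 FPKM and 3.32 FPKM, Fgd5 at 7.37 FPKM and 1.70 FPKM, and the calcium pump gene Atp2a3 at 12.3 FPKM and 3.33 FPKM. The acyl-CoA thioesterase gene Acot1 was at 41.3 FPKM and 12.9 FPKM, with counts that were not whole.

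The lowest ratios of all belonged to near-identical zinc finger genes of 1 cluster on chromosome 2. Expected reads in the control and Lef1 P5 were 307.67 and 0 for Gm4724, 306.67 and 2.42 for Gm14434, and 223.33 and 0 for Zfp967. Their neighbours Gm14308 and Zfp966 were called higher, with reads of 307.34 and 795.61 for the first and 19.59 and 272.6 for the second. Their counts were not whole. The 5 genes together had 1165 reads in the control, 730 for Lef1 P2 and 1071 for Lef1 P5. All 13 listed genes of the cluster had 2262, 2071 and 2665 reads. Scaled to depth, the sum over the cluster was 1.16 times as high in Lef1 P5 as in the control, so the single-gene calls are uncertain.

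Genes of the Hippo pathway were called only at its membrane scaffolds and 1 target. Of 26 measured members 3 were higher and none lower, beside 1.40% and 1.28% of all genes that could be called. The list's median was 0.02. The scaffold genes Amot and Amotl2, whose proteins hold Yap in the cytoplasm, were at 2.78 FPKM and 13.6 FPKM in the control and at 8.99 FPKM and 32.5 FPKM in Lef1 P5. The Yap target gene Ccn1 was at 6.16 FPKM and 15.4 FPKM, while Ccn2, another target, was at 7.06 FPKM and 5.18 FPKM. Yap1 was at 45.7 FPKM and 46.0 FPKM.

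Targets of p53 lay below the control level as a list, by less than 2-fold. Of 27 measured members 22 had a ratio below 0, and the median was -0.50. Only the kinase gene Plk2 was called lower and none higher, beside 1.28% and 1.40% of all genes that could be called. Plk2, with a log2 ratio of -1.01, was not called under median-of-ratios, TMM or quantile scaling, which leaves the list without a call. The pro-apoptotic gene Bbc3 was at 39.9 FPKM in the control and 20.7 FPKM in Lef1 P5, the cell-cycle inhibitor gene Cdkn1a at 55.3 FPKM and 33.5 FPKM, and the p53 ligase gene Mdm2 at 71.5 FPKM and 45.8 FPKM. Trp53 itself was at 190.04 FPKM and 203 FPKM. Pmaip1 and Bax were near 0, with log2 ratios of 0.06 and 0.09.

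Germline genes had the same median, -0.50 (-0.26 with a pseudocount of 5 FPKM). Of 26 measured members 4 were called lower and none higher, beside 1.28% and 1.40% of all genes that could be called. The 4 were the homeobox gene Rhox13, the tubulin gene Tuba3a, and the meiotic cohesin genes Stag3 and Smc1b. Rhox13 was at 5.71 FPKM in the control, 2.93 FPKM in Lef1 P2 and at 1.42 FPKM in Lef1 P5. Outside the list, the meiotic recombination gene Rec114 was at 14.1 FPKM, 9.57 FPKM and 4.12 FPKM. The germ cell genes Ddx4 (4.88 and 2.25 FPKM) and Dazl (7.70 and 4.76 FPKM) were lower by less than the threshold, while Prdm14, a specifier of the germline, was at 4.87 FPKM and 6.79 FPKM.

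In the stress response list 2 of 32 measured genes were higher, beside 1.40% of all genes that could be called. Chac1, which degrades glutathione, was at 1.63 FPKM, 16.8 FPKM and 7.45 FPKM, and the secreted hormone gene Stc2 at 3.68 FPKM, 10.8 FPKM and 8.64 FPKM. Atf4, the factor gene upstream of both, was at 85.6 FPKM, 163 FPKM and 152 FPKM and was left uncalled. None of 24 endoplasmic reticulum chaperone genes and none of the 20 measured genes of the heat-shock list was called. That list does not hold Hspb2, named above among the lower genes. No gene was called among 31 replication, 40 respiratory chain, 31 cholesterol and fatty acid synthesis and 20 Myc network genes, whose medians ran from -0.09 to 0.06.

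**Figure D4:**
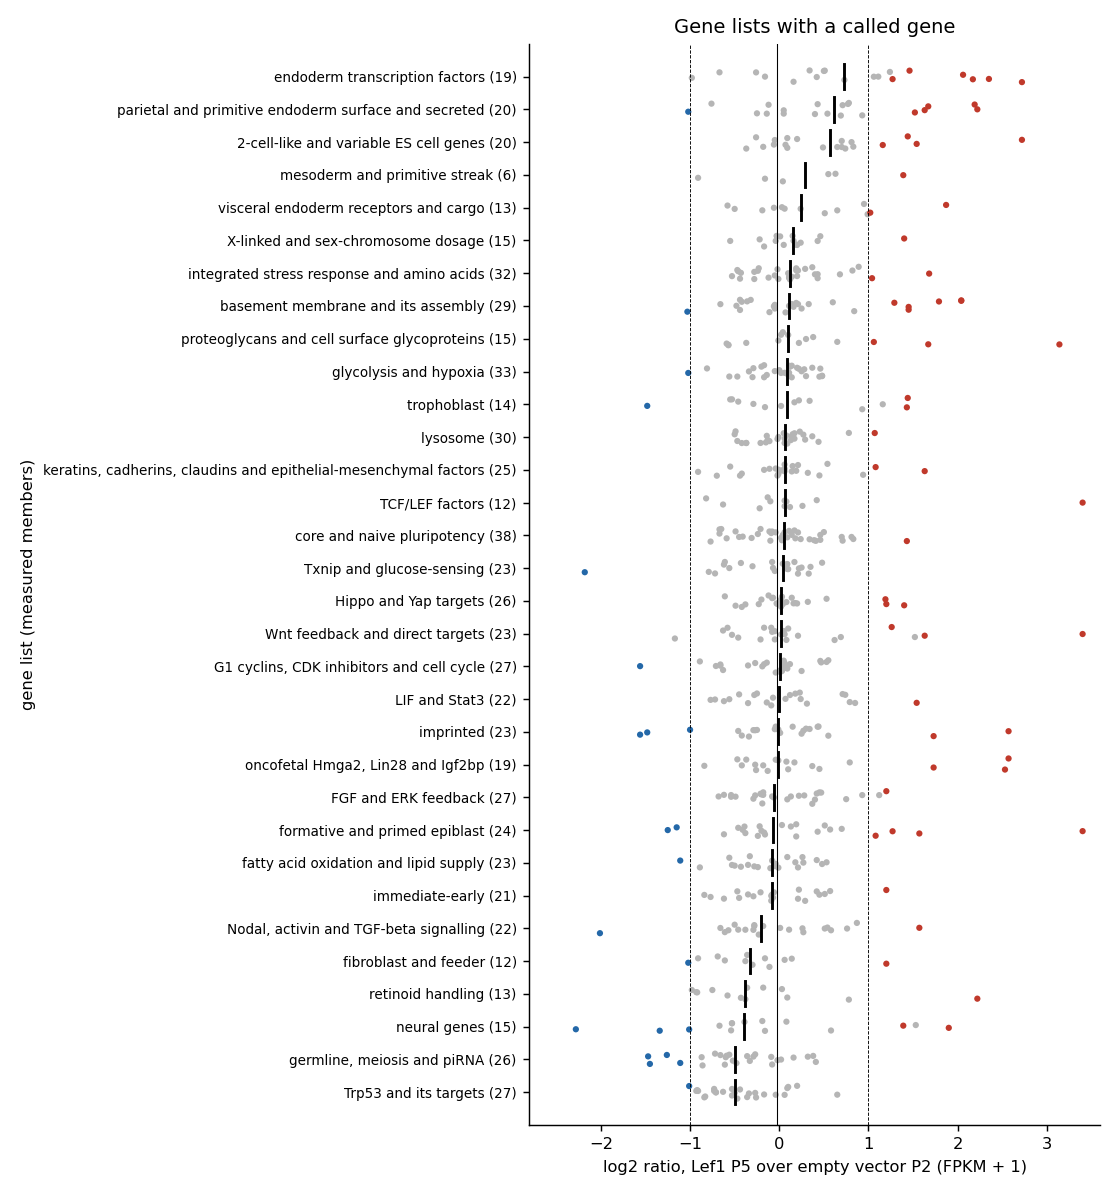
Log2 ratio of Lef1 P5 over the control (x axis, FPKM + 1) for measured members of each gene list with at least 1 called gene, with the number measured in brackets. Points are genes (red called higher, blue called lower, grey not called), black bars are list medians, the thin line is the median of all measured genes and the dashed lines mark a ratio of 1 in size. Lef1, whose ratio is larger, is drawn at the right edge. Endoderm factors have the highest median (0.73) and the germline and p53 lists the lowest (-0.50), though nearly all p53 targets are grey.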

How the data were processed

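RNA-seq gene tables of 3 libraries were used as deposited, 1 per group. Per the file headers, each lists Entrez gene numbers, transcripts, a length, an expected count and FPKM. Deposited expected counts can be fractional, and the deposited FPKM values use a length per gene that can differ between libraries. Bowtie 0.12.2 and mm8 are named in the submitters' processing notes. No source used here gives the quantifier or says whether counting used strand.

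Tables were joined on gene number, and genes that a library does not list were set to 0. Symbols came from the RefSeq GRCm38.p6 table (17951 of 17997 matched), which served for names and neighbours only, apart from promoter windows printed in its own build. Measured means 1 FPKM in either library. Exact Poisson intervals came from expected counts (scipy 1.17.1). The calling rule was checked on simulated counts. How the rule behaves under the spread between cultures was not tested, since no group had a repeat library.

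The genes, the 45 lists and the naming rule were chosen with earlier results of these data known. The rule names Lef1, Gata6, Hmga2, Txnip, the 12 highest and 12 lowest ratios, and up to 4 called members of each list in each direction, then well-known members. Other names were chosen after values were seen. Alternatives were 2 pseudocounts, 3 minimum levels, median-of-ratios, TMM (edgeR 4.0.16 on rounded expected counts) and quantile scaling, 1 common length a gene, CPM, 2 fold thresholds, non-overlapping intervals and whole counts. For TMM only the scaling factor was taken from edgeR, and no count test was run. Values of some genes are not reported here.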

Additional observations from a re-analysis of the deposited data

How the results depend on the processing

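As reported, 142 genes were called higher and 130 lower. The counts moved by more than 1.5 times in 1 or both directions under 6 settings: 192 higher and 222 lower with a pseudocount of 0.1 FPKM, 42 higher and 25 lower with a pseudocount of 5 FPKM, 67 and 49 with a minimum of 10 FPKM, 269 and 276 with CPM, 436 and 602 with a fold threshold of 1.5, and 17 and 7 with a threshold of 4. The thresholds, minimum levels and pseudocounts change the counts by their own construction. CPM is not divided by gene length, so the same pseudocount and minimum act at other levels. How much of the change with CPM this made was not tested. The share of calls that were higher was 52.2% as reported and ran from 55.9% (147 and 116, median-of-ratios and TMM) to 59.1% (153 and 106, quantile) under the other scalings. It moved by more than 10 points with a pseudocount of 5 FPKM (62.7%), a fold threshold of 1.5 (42.0%) and a threshold of 4 (70.8%). The 71 named genes compared here were all called as reported, and uncalled genes named for their lists were left out. Of these 71 genes 11 were called under every setting and none changed direction. Most settings could not reverse the sign of a called ratio, so the last count was nearly fixed in advance. Of the 71 genes, 5 were no longer called under median-of-ratios and TMM scaling (Epas1, Mapt, Plk2, Slc22a18 and Thy1), all close to the threshold as reported. Of 560 counts of called list members over the settings, 125 moved by over 1.5 times. No paired analysis was possible because each group has 1 library. Depth limits weakly expressed genes: 12 higher and 17 lower genes had under 50 reads in the higher library.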
